A study of Homo sapiens with 6 samples.

Results

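The genes described here are 57 neighbours on the short arm of human chromosome 2, from ID2 in band 2p25 to ERLEC1 in band 2p16. They were chosen from earlier results of the same arrays, because many of them had higher signals in 1 of the hairpin groups than in the control. Of the 57 genes, 54 had a row of their own symbol among the 21214 rows with a gene symbol. MBOAT2, ATL2 and CALM2 had none and are named only. Because the 3 contrasts between the groups took part in the choice, their differences and calls are given as a description of these genes and not as evidence about them.

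RNA was measured in MDA-MB-231 cells, a long-established line from a human breast cancer of the triple-negative kind. The 2 clones carrying TIP-1 shRNA 159, the 2 clones carrying TIP-1 shRNA 162 and the 2 clones carrying a control shRNA were each hybridised once to an Affymetrix Human Gene 1.0 ST array. A short hairpin RNA (shRNA) is processed in the cell into a small RNA that lowers the messenger RNA it matches, and TIP-1 is the small PDZ-domain protein encoded by TAX1BP3. All 6 clones grew in serum-supplemented RPMI and were taken for RNA the day after trypsin detachment and reseeding. Independent clones are the replicates (n = 2 per group), no technical replicates were made, and DNA was not analysed here. Bulk RNA was measured, so more RNA in every cell and more RNA in some of the cells cannot be told apart.

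Genes that lie side by side on a chromosome belong to the same DNA molecule but usually encode proteins of unrelated function. Some neighbours are arranged head to head, so that a short stretch of DNA holds the start sites of both. The 57 genes are of this mixed kind. They include enzymes of polyamine, nucleotide and drug metabolism, kinases and their scaffolds, factors of RNA processing and ribosome assembly, and proteins of the cell surface and the secretory route. On the RefSeq annotation of assembly GRCh38.p14 the listed genes with a row fall into 4 stretches of chromosome 2. ID2 to ODC1 covers positions 8682056 to 10448327 (14 listed genes with a row) and GCKR to CLIP4 covers 27496839 to 29183808 (13 genes). STRN to MORN2 covers 36837698 to 38882709 (13 genes) and SRBD1 to ERLEC1 covers 45388680 to 53818796 (14 genes). The whole interval is 45.14 Mb long. The stretches also hold measured genes that are not listed, and medians and counts given for a stretch are over its listed genes.

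The silenced gene checks the labels. The TAX1BP3 row, which the platform table shares with the readthrough transcript P2RX5-TAX1BP3, had log2 signals of 10.40 and 10.40 in the shRNA 159 clones, 9.85 and 10.01 in the shRNA 162 clones and 11.65 and 11.56 in the controls. The fitted log2 difference from control was -1.20 ± 0.08 (SE) with shRNA 159 and -1.67 ± 0.08 with shRNA 162. The 4 TIP-1 shRNA clones lay below both controls, with an exact two-sided permutation p of 0.0667, the smallest that 15 splits allow. Array medians lay between 7.37 and 7.44, and the 2 clones of a group correlated at 0.996 to 0.997 across all rows. Markers fixed for the line (VIM, CD44, AXL, TGFBI, KRT18) had log2 signals of 11.64 to 13.41 over the single arrays. ESR1, PGR, ERBB2 and CDH1, chosen as low in this line, had 5.83 to 8.19, and 7 markers of leukocytes, fibroblasts and endothelium had 4.40 to 8.75.

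With shRNA 159 the listed genes of the 4 stretches were higher than in the control almost throughout. Their median log2 difference was 0.46, a 1.37-fold higher signal, against a median of -0.01 over all rows tested. Of the 54 genes, 51 had a positive difference and 37 had one between 0.3 and 0.6. A call here means an adjusted p under 0.05 in limma, fitted and adjusted over all 21214 rows. By that measure 34 of the 54 were higher and 0 were lower, where 1.69% of all rows were called higher and 0.839% lower. Both shRNA 159 clones lay above both control clones for 50 of the 54, where 20.7% of all rows did so. The exceptions with overlapping clones were CYS1, GCKR, PLB1 and RHOQ. The number of calls varied between settings. It was 22 when only the 4 arrays compared were fitted and 2 when rows without a symbol were tested as well. It was 6 and 5 without control clone 1 or 2, 22 without shRNA 162 clone 1 or clone 2, 7 without shRNA 159 clone 1 and 30 without shRNA 159 clone 2. Under these removals the median difference stayed between 0.40 and 0.50.

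With shRNA 162 the same genes differed less from the control. Their median log2 difference was 0.16, against 0.02 over all rows, and it ranged from -0.32 for MCFD2 to 1.07 for CYP1B1. There were 8 genes called higher and 1 called lower, where 5.88% of all rows were called higher and 3.64% lower. The split over all rows was 1247 higher and 772 lower, and it became 1078 higher and 1074 lower after quantile normalization of the arrays. Both shRNA 162 clones lay above both controls for 35 genes and below them for 4, where 33.3% and 23.3% of all rows did so. The 9 calls became 2 without control clone 1 or clone 2, 1 without shRNA 162 clone 1, 2 without shRNA 162 clone 2, 2 when rows without a symbol were tested as well, and 18 with a variance trend in the model.

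The hairpins were also set against each other. The shRNA 159 clones averaged above the shRNA 162 clones for 50 of the 54 genes, with a median log2 difference of 0.28, against -0.04 over all rows. Of the 54 genes, 21 were called higher with shRNA 159 and 1, CYP1B1, was called lower, where 4.02% and 4.64% of all rows were called so. Both shRNA 159 clones lay above both shRNA 162 clones for 40 genes and below them for 3, where 19.3% and 32.6% of all rows did so. The controls enter the shared estimate of the spread but not the differences. The 22 calls became 15 without control clone 1 or clone 2, 5 without shRNA 162 clone 1 or clone 2, 11 without shRNA 159 clone 1 and 6 when rows without a symbol were tested as well. The 3 comparisons share arrays in pairs, so their values are set side by side here and are not counted against each other.

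**Figure D1:**
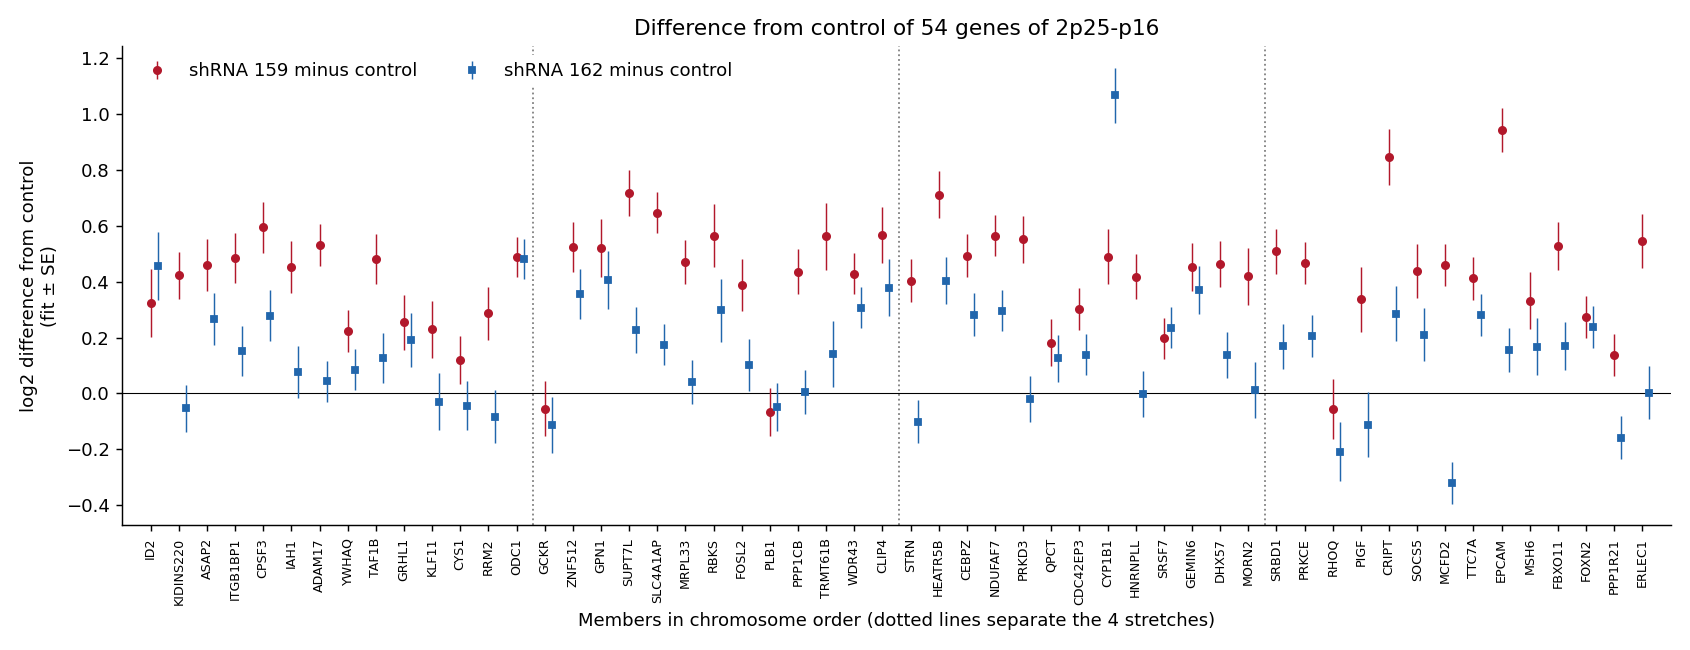
Fitted log2 difference from control (vertical axis, bars are the standard error of the fit) for the 54 measured genes in chromosome order (horizontal axis), with shRNA 159 as circles and shRNA 162 as squares. Most circles lie between 0.3 and 0.6 in all 4 stretches, while the squares scatter around their median of 0.16, with CYP1B1 at 1.07 and MCFD2 at -0.32.

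The promoter table holds 5 pairs of these genes arranged head to head, and the DNA between their start sites is shown because their values are compared pair by pair. A gene may have several start sites (ITGB1BP1 and MCFD2 have further ones in the table, and MCFD2 overlaps TTC7A), and the pair of starts with the longest stretch between them was used. The sequences are RefSeq's for GRCh38.p14, plus strand, 5′ to 3′. Capitals mark matches, on either strand, to 6 motifs: the GC box GGGCGG, the CCAAT box CCAAT, the E-box CACGTG, the ETS core CCGGAA, the TATA box TATAAA and the NRF1 motif, searched by its consensus.
ITGB1BP1/CPSF3, chr2:9423529-9423653: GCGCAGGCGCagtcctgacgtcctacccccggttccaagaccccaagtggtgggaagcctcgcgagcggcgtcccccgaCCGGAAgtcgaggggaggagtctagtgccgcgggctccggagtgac
SUPT7L/SLC4A1AP, chr2:27663615-27663888: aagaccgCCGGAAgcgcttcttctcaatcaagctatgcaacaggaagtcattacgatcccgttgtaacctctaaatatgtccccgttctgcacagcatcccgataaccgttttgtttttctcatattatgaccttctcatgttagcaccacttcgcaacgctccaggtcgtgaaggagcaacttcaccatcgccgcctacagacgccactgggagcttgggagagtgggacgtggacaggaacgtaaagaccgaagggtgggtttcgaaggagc
CEBPZ/NDUFAF7, chr2:37231597-37231657: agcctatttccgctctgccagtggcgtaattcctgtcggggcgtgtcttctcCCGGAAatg
DHX57/MORN2, chr2:38875935-38875975: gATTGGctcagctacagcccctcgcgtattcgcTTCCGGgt
MCFD2/TTC7A, chr2:46915807-46915865: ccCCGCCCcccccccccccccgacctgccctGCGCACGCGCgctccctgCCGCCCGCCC
The ETS core was found in the first 4 of these sequences and the NRF1 motif in the first and the last. A match is a string of letters and not a shown binding site.

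In these 5 pairs, both genes had close differences from control with shRNA 159, but the 54 genes as a whole also lay close together. Their quartiles were 0.33 and 0.53 with shRNA 159 and 0.00 and 0.28 with shRNA 162. Whether head-to-head pairs lie closer than other listed genes was not tested. CPSF3, the endonuclease that cuts pre-messenger RNA at its 3′ end, and ITGB1BP1, which binds the tail of integrin beta 1, stood at 0.59 and 0.48. SUPT7L, a subunit of SAGA-type coactivator complexes, and SLC4A1AP, also called kanadaptin, stood at 0.72 and 0.65. The other pairs were NDUFAF7 at 0.57 with CEBPZ at 0.49, DHX57 at 0.46 with MORN2 at 0.42, and MCFD2 at 0.46 with TTC7A at 0.41. PIGF and CRIPT, adjacent genes for which no start-site sequence is shown, were further apart, at 0.34 and 0.85. With shRNA 162 the first 4 pairs also differed by at most 0.13 within a pair. MCFD2 and TTC7A did not: MCFD2, which with the lectin LMAN1 carries clotting factors out of the endoplasmic reticulum, was at -0.32 and TTC7A, a partner of phosphatidylinositol 4-kinase alpha, was at 0.28. MCFD2 had log2 signals of 11.76 and 11.71 in the shRNA 159 clones, 10.92 and 11.00 in the shRNA 162 clones and 11.27 and 11.29 in the controls. TTC7A had 8.02 and 8.11 in the shRNA 159 clones, 7.90 and 7.96 in the shRNA 162 clones and 7.66 and 7.65 in the controls. The shRNA 162 clones were thus below both controls for one gene of this pair and above both for the other.

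The promoter table held 46 of the 54 genes, each with 250 bases before and 50 after the start site. ETS cores were present in 41.3% of these promoters and in 17.6% of all 27305 promoters in the table. The GC box was present in 60.9% against 44.6%, and the NRF1 motif in 17.4% against 6.28%. CCAAT boxes were at 34.8% against 35.7%, and E-boxes at 8.70% against 7.43%. TATAAA was found in 0 of the 46, against 12.0% of all. The median GC content was 64.3% in the 46 promoters and 58.3% in all. These shares describe a list chosen by expression in one cell line, and head-to-head pairs share part of their promoter sequence. The 27305 promoters were not selected by signal, whereas 42 of the 54 listed genes were at or above the median row mean. Promoters of equally bright genes were not compared.

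The stretch from ID2 to ODC1 had a median difference from control of 0.44 with shRNA 159 (8 of 14 called higher) and 0.11 with shRNA 162 (1 of 14 called higher). Of all rows, 1.69% were called higher with shRNA 159 and 5.88% with shRNA 162, so the shRNA 162 count (7.14%) was near that share. ID2 encodes a helix-loop-helix protein that lacks a DNA-binding region and holds its partners off DNA. Its log2 signals were 7.11 and 7.09 in the shRNA 159 clones, 7.32 and 7.15 in the shRNA 162 clones and 6.96 and 6.60 in the controls. The controls were 0.36 apart, the widest gap between control clones in the list, and neither hairpin's difference was called (0.32 ± 0.12 with shRNA 159 and 0.46 ± 0.12 with shRNA 162). ADAM17 is the membrane protease that sheds tumour necrosis factor and ligands of the EGF receptor. Its signals were 9.12 and 9.05 in the shRNA 159 clones, 8.60 and 8.59 in the shRNA 162 clones and 8.55 and 8.55 in the controls. The difference from control was 0.53 ± 0.07 with shRNA 159 and 0.04 ± 0.07 with shRNA 162, and shRNA 159 minus shRNA 162 was 0.49 ± 0.07. CPSF3 had 10.23 and 10.07 in the shRNA 159 clones, 9.84 and 9.82 in the shRNA 162 clones and 9.63 and 9.47 in the controls. Its 3 groups did not overlap and stood in the order shRNA 159, shRNA 162, control, as they did for its head-to-head neighbour ITGB1BP1, which had 9.90 and 9.69 in the shRNA 159 clones, 9.46 and 9.46 in the shRNA 162 clones and 9.33 and 9.28 in the controls. TAF1B, a subunit of the selectivity factor of RNA polymerase I, had 10.39 and 10.23 in the shRNA 159 clones, 9.96 and 9.96 in the shRNA 162 clones and 9.91 and 9.76 in the controls.

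ODC1, ornithine decarboxylase, makes putrescine and sets the pace of polyamine synthesis. Its difference from control was nearly the same with each hairpin. Its signals were 12.06 and 12.02 in the shRNA 159 clones, 12.04 and 12.02 in the shRNA 162 clones and 11.54 and 11.56 in the controls. All 4 hairpin clones lay close together and above both controls, at 0.49 ± 0.07 with shRNA 159 and 0.48 ± 0.07 with shRNA 162. The 250 bases before its start site are shown for this gene because it departs from the order of the stretch. They lie on the minus strand, are written 5′ to 3′ in the direction of the gene, and hold 4 GC boxes and 1 ETS core in capitals.
ODC1, chr2:10448328-10448577: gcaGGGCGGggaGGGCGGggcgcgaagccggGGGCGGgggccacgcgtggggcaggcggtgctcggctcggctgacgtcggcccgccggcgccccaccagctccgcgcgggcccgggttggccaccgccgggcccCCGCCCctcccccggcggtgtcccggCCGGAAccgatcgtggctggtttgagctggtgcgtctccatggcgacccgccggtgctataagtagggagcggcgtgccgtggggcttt
Among the rest of the stretch, the ankyrin-repeat scaffold KIDINS220 was called with shRNA 159 (0.42), as were the Arf GTPase-activating protein ASAP2 (0.46) and the esterase IAH1 (0.45). The 14-3-3 protein YWHAQ, whose mean log2 signal of 13.29 was the highest in the list, had 0.22, and RRM2, the small subunit of ribonucleotide reductase, had 0.29. GRHL1 (0.25), KLF11 (0.23) and the cilium protein CYS1 (0.12) were not called either. The lowest running median of 5 consecutive listed genes with shRNA 159, 0.23, was reached from YWHAQ to CYS1 and again from KLF11 to GCKR. The second of these runs crosses the 17.05 Mb between ODC1 and GCKR, where unlisted genes lie.

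Between GCKR and CLIP4 the median difference from control was 0.52 with shRNA 159 (9 of 13 called higher) and 0.17 with shRNA 162 (3 of 13). The shares of all rows called higher were 1.69% and 5.88%. SUPT7L had 9.80 and 9.78 in the shRNA 159 clones, 9.31 and 9.29 in the shRNA 162 clones and 9.16 and 8.99 in the controls. Its head-to-head neighbour SLC4A1AP had 10.62 and 10.55 in the shRNA 159 clones, 10.11 and 10.12 in the shRNA 162 clones and 9.95 and 9.93 in the controls. For both genes the shRNA 159 clones lay well above the shRNA 162 clones, which in turn lay just above the controls. RBKS, ribokinase, had 8.51 and 8.19 in the shRNA 159 clones, 8.06 and 8.10 in the shRNA 162 clones and 7.71 and 7.86 in the controls. TRMT61B, a methyltransferase of mitochondrial transfer RNA, had 8.97 and 8.59 in the shRNA 159 clones, 8.39 and 8.33 in the shRNA 162 clones and 8.21 and 8.22 in the controls. The shRNA 159 clones of TRMT61B were 0.39 apart, the widest gap in this list, and its difference of 0.56 ± 0.12 fell just outside the call threshold. CLIP4, a protein with CAP-Gly domains of the kind that bind microtubules, had 9.16 and 8.89 in the shRNA 159 clones, 8.78 and 8.90 in the shRNA 162 clones and 8.45 and 8.48 in the controls.

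GCKR, the regulator of glucokinase in liver, opens this stretch. Its log2 signals were 6.13 and 6.19 in the shRNA 159 clones, 6.13 and 6.08 in the shRNA 162 clones and 6.08 and 6.35 in the controls, with overlapping groups. PLB1, phospholipase B1, also had overlapping groups (-0.07 with shRNA 159), and both rows were dim, with mean log2 signals of 6.16 and 6.72. Of the others, ZNF512 (0.52), the RNA polymerase II assembly GTPase GPN1 (0.52), the mitochondrial ribosomal protein MRPL33 (0.47), the catalytic phosphatase subunit PPP1CB (0.44) and the ribosome assembly factor WDR43 (0.43) were called with shRNA 159. FOSL2, a partner of JUN in AP-1, had 0.39 and was not. With shRNA 162, the calls were ZNF512 (0.36), GPN1 (0.41) and WDR43 (0.31).

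From STRN to MORN2 the median difference was 0.45 with shRNA 159 (9 of 13 called higher) and 0.14 with shRNA 162 (4 of 13). The shares of all rows called higher were 1.69% and 5.88%. STRN, striatin, is the scaffold that ties kinases to the phosphatase PP2A. Its signals were 9.98 and 9.90 in the shRNA 159 clones, 9.44 and 9.43 in the shRNA 162 clones and 9.50 and 9.57 in the controls. The shRNA 162 clones were thus slightly below both controls while the shRNA 159 clones were above all other clones. HEATR5B, which works with the AP-1 clathrin adaptor, had 9.02 and 8.90 in the shRNA 159 clones, 8.62 and 8.68 in the shRNA 162 clones and 8.19 and 8.30 in the controls, and was called with both hairpins (0.71 ± 0.08 with shRNA 159 and 0.40 ± 0.08 with shRNA 162). CEBPZ, a factor of ribosome assembly, had 8.83 and 8.75 in the shRNA 159 clones, 8.55 and 8.61 in the shRNA 162 clones and 8.32 and 8.27 in the controls. NDUFAF7, a methyltransferase needed to assemble respiratory complex I, had 8.80 and 8.76 in the shRNA 159 clones, 8.53 and 8.50 in the shRNA 162 clones and 8.22 and 8.21 in the controls. For HEATR5B, CEBPZ and NDUFAF7 alike, the 3 groups did not overlap and the shRNA 162 clones stood between the others. PRKD3, protein kinase D3, had 7.85 and 7.69 in the shRNA 159 clones, 7.20 and 7.19 in the shRNA 162 clones and 7.19 and 7.24 in the controls. MORN2 had 9.64 and 9.38 in the shRNA 159 clones, 9.04 and 9.16 in the shRNA 162 clones and 9.11 and 9.07 in the controls. For both, the shRNA 159 clones lay above the controls and the shRNA 162 clones overlapped them.

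CYP1B1 is the cytochrome P450 that oxidises oestrogens and polycyclic aromatic hydrocarbons and that the aryl hydrocarbon receptor induces. It is the gene of the list in which shRNA 162 stood highest. Its log2 signals were 7.21 and 7.04 in the shRNA 159 clones, 7.81 and 7.60 in the shRNA 162 clones and 6.59 and 6.68 in the controls. The groups did not overlap. The difference from control was 0.49 ± 0.10 with shRNA 159, a 1.40-fold higher signal, and 1.07 ± 0.10 with shRNA 162, a 2.10-fold higher signal. The difference of shRNA 159 minus shRNA 162 was -0.58 ± 0.10. In the rest of the stretch, the splicing regulator HNRNPLL (0.42), the SMN complex subunit GEMIN6 (0.45) and the helicase DHX57 (0.46) were called with shRNA 159. GEMIN6 was also called with shRNA 162 (0.37), and so was NDUFAF7 (0.30). The glutaminyl cyclase QPCT (0.18), the CDC42 effector CDC42EP3 (0.30) and the splicing factor SRSF7 (0.20) were not called with shRNA 159. The 5 listed genes from QPCT to SRSF7 had the lowest running median between the hairpins, 0.06.

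The last and longest stretch, SRBD1 to ERLEC1, had a median difference of 0.45 with shRNA 159 (8 of 14 called higher) and 0.17 with shRNA 162 (0 called higher, 1 called lower). Of all rows, 1.69% were called higher with shRNA 159, and 5.88% were called higher and 3.64% lower with shRNA 162. EPCAM, the epithelial cell adhesion molecule, had the largest difference of the list with shRNA 159. The log2 signals of its brighter row were 7.97 and 8.02 in the shRNA 159 clones, 7.16 and 7.25 in the shRNA 162 clones and 7.01 and 7.09 in the controls. The shRNA 159 clones stood far above the controls, at 0.94 ± 0.08 or 1.92-fold, and the shRNA 162 clones stood just above them, at 0.16 ± 0.08. A second EPCAM row had a larger difference with shRNA 159, 1.21 ± 0.07, with 8.12 and 8.12 in the shRNA 159 clones, 7.01 and 7.06 in the shRNA 162 clones and 6.90 and 6.93 in the controls. CRIPT, a small protein that binds PDZ domains of synaptic scaffolds, came next. Its signals were 10.36 and 10.27 in the shRNA 159 clones, 9.65 and 9.86 in the shRNA 162 clones and 9.55 and 9.39 in the controls. That is a difference of 0.85 ± 0.10, or 1.80-fold, with shRNA 159 and 0.28 ± 0.10 with shRNA 162. The 5 listed genes from CRIPT to EPCAM had the highest running median between the hairpins, 0.56.

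ERLEC1, a lectin of the endoplasmic reticulum that handles misfolded glycoproteins, closes the list. Its signals were 9.70 and 9.46 in the shRNA 159 clones, 9.04 and 9.04 in the shRNA 162 clones and 9.07 and 9.00 in the controls. SRBD1, a protein with an S1 RNA-binding domain, had 9.66 and 9.53 in the shRNA 159 clones, 9.23 and 9.27 in the shRNA 162 clones and 9.10 and 9.07 in the controls. FBXO11, the substrate-binding subunit of a ubiquitin ligase, had 9.21 and 9.14 in the shRNA 159 clones, 8.82 and 8.81 in the shRNA 162 clones and 8.55 and 8.74 in the controls. In all 3 genes the shRNA 159 clones lay above every other clone. MCFD2 (0.46), TTC7A (0.41) and protein kinase C epsilon, PRKCE (0.47), were called with shRNA 159 too. SOCS5 (0.44), the mismatch repair subunit MSH6 (0.33), FOXN2 (0.27), the endosomal protein PPP1R21 (0.14) and PIGF (0.34), a protein of GPI anchor synthesis, were not.

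Rows of 1 gene did not always agree. RHOQ, a small GTPase, had -0.05 with shRNA 159 in its brighter row and 0.53 ± 0.09 in its other row, where the signals were 10.14 and 9.95 in the shRNA 159 clones, 9.58 and 9.48 in the shRNA 162 clones and 9.51 and 9.53 in the controls. PIGF had 2 identical rows and another row in which 1 shRNA 159 clone stood at 7.50 and the other at 6.40, against 6.28 and 6.38 in the shRNA 162 clones and 6.42 and 6.41 in the controls. The choice of row therefore decides whether RHOQ counts among the genes called.

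**Figure D2:**
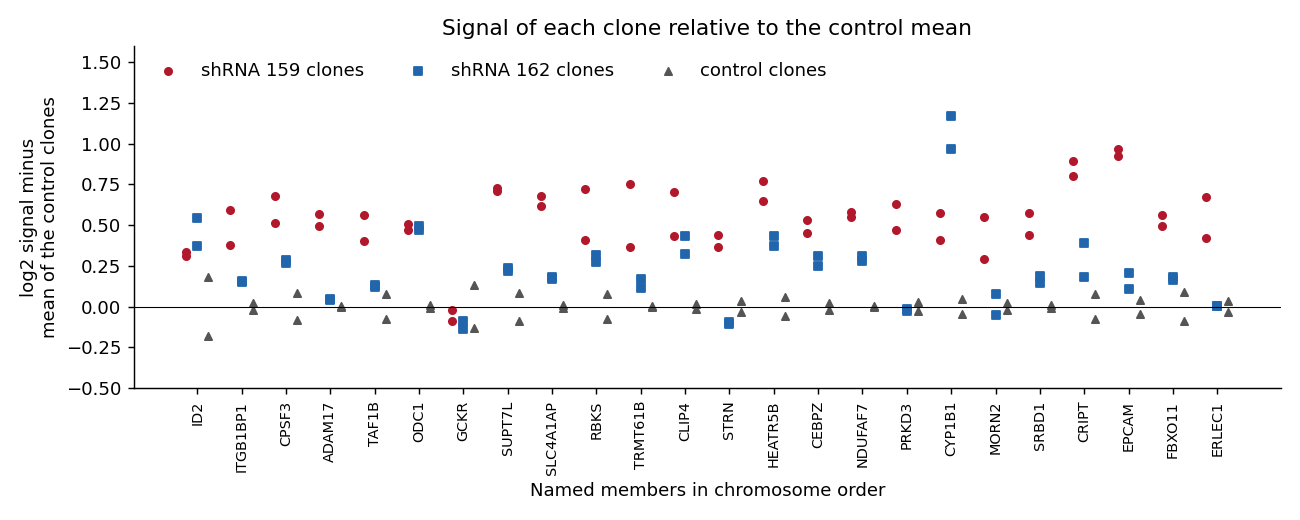
Log2 signal of each clone minus the mean of the 2 control clones (vertical axis) for the 24 genes named clone by clone (horizontal axis, chromosome order), with shRNA 159 as circles, shRNA 162 as squares and control as triangles. The shRNA 159 circles lie above the control triangles for every gene but GCKR, and CYP1B1 is the gene whose squares reach highest.

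The genes were also grouped by role, with shRNA 159 set against control first. RNA and ribosome factors had 8 of 10 called higher (median 0.47) and cell surface, secretory and membrane traffic proteins had 7 of 9 (0.53). Kinase, phosphatase and signalling proteins had 7 of 11 (0.44), metabolic and lipid enzymes 5 of 10 (0.39), transcription regulators 3 of 8 (0.36) and the remaining genes 4 of 6 (0.52). Of all rows, 1.69% were called higher with shRNA 159. With shRNA 162 the medians ran from 0.04 for the surface and traffic proteins to 0.23 for the remaining genes, with 0 of the 11 signalling proteins and 3 of the 10 enzymes called higher, where 5.88% of all rows were called so. Between the hairpins, 6 of the 9 surface and traffic proteins were called higher with shRNA 159 (median 0.47), and 2 of the 10 enzymes (median 0.16), with CYP1B1 called lower. In that comparison 4.02% of all rows were called higher and 4.64% lower. The enzyme group also holds GCKR and PIGF, which are not enzymes themselves. The groups are small, and differences between them were not tested.

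The 2 shRNA 159 clones differed from each other in degree. Clone 1 had a median of 0.50 above the control mean over the 54 genes and clone 2 had 0.40, with clone 1 above clone 2 for 45 of the 54, where it was above for 49.0% of all rows. The shRNA 162 clones had 0.15 and 0.16, and clone 1 was above clone 2 for 28 genes. The control clones had 0.00 and 0.00, and clone 1 was above clone 2 for 26. Each shRNA 159 clone was above the control mean for 52 of the 54 genes, each shRNA 162 clone for 41.

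Row brightness went with the number of calls. Of the genes whose mean log2 signal was at or above the median row mean of 7.88, 30 of 42 were called higher with shRNA 159 (median 0.47). Among the dimmer ones it was 4 of 12 (median 0.29), and those 4 were PRKD3, CYP1B1, GEMIN6 and EPCAM. Over all rows, 2.64% of the brighter rows and 0.745% of the dimmer rows were called higher with shRNA 159. Genes just inside the threshold with shRNA 159 were ASAP2 and IAH1 (limma adjusted p = 0.0441 and 0.0454), and those just outside were TRMT61B and SOCS5 (0.0535 and 0.0581), so the border runs through differences of similar size.

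**Figure D3:**
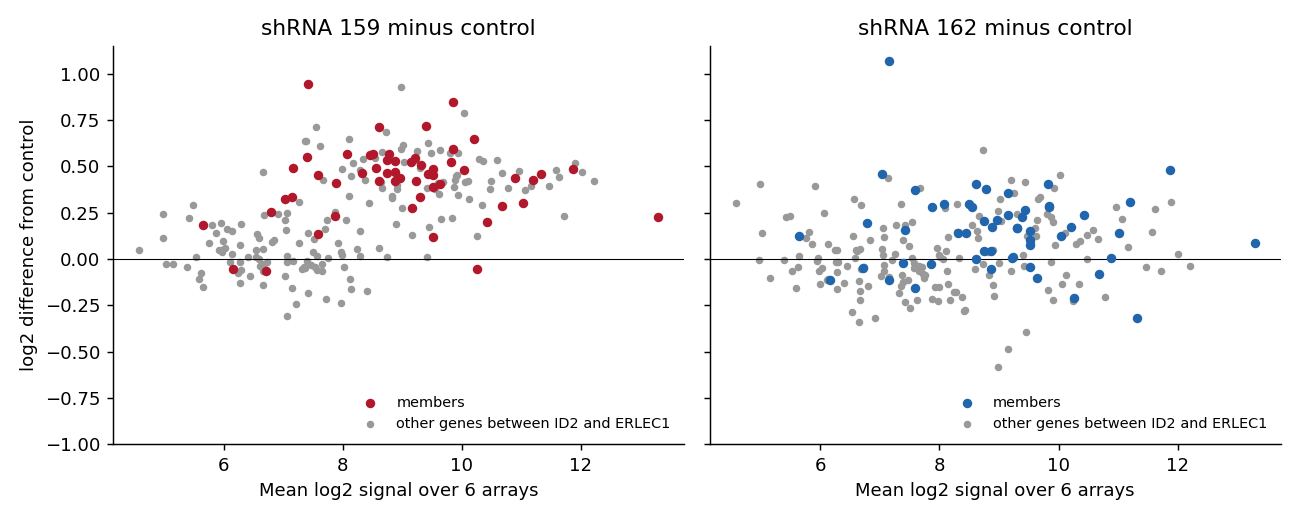
Log2 difference from control (vertical axis) against mean log2 signal over the 6 arrays (horizontal axis) for the 54 genes (coloured) and the 171 other measured genes between ID2 and ERLEC1 (grey), with shRNA 159 on the left and shRNA 162 on the right. On the left, the brighter grey points overlie the coloured ones (medians 0.41 and 0.47), and the dim grey points lie around 0.03.

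The 54 genes are not all of the genes of their interval, and 171 others between ID2 and ERLEC1 had a row of their own. With shRNA 159 their median difference from control was 0.19, with 49 called higher (28.7%, where 1.69% of all rows were) and 0 lower (where 0.839% were). The 85 brighter ones had a median of 0.41 with 45 called higher, close to the 0.47 of the brighter listed genes, and the 86 dimmer ones had 0.03 with 4 called higher. Most of these genes lie in the gaps between the 4 stretches. The 19 inside the stretches, without 3 between PPP1R21 and ERLEC1, had a median of 0.11 with 3 called higher. Of those 19, the 6 brighter ones had a median of 0.38 with 2 called higher. The brighter genes between ODC1 and GCKR had a median of 0.41 (29 of 53 called higher), those between CLIP4 and STRN 0.38 (7 of 13) and those between MORN2 and SRBD1 0.44 (7 of 12). Of all rows, 2.64% of the brighter and 0.745% of the dimmer were called higher with shRNA 159. The 49 calls became 31 when only the 4 arrays compared were fitted, 31 without shRNA 162 clone 1 or clone 2, 10 without shRNA 159 clone 1, 4 without control clone 1, 3 without control clone 2 and 2 when rows without a symbol were tested as well.

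Against control with shRNA 162, the 171 genes had a median of 0.00, with 13 called higher (7.60%, where 5.88% of all rows were) and 3 lower (where 3.64% of all rows were). Leaving out 1 array gave 2 to 19 calls in place of 16. Between the hairpins their median was 0.17, with 47 called higher (27.5%, where 4.02% of all rows were) and 2 lower with shRNA 159 (where 4.64% were). Those 49 calls became 11 without shRNA 162 clone 1, 17 without shRNA 162 clone 2, 22 without shRNA 159 clone 1 and 31 to 33 without any other single array. EPAS1, which encodes the hypoxia-inducible factor HIF-2 alpha and lies between listed genes of the last stretch, had 9.87 and 9.72 in the shRNA 159 clones, 8.28 and 8.28 in the shRNA 162 clones and 8.88 and 8.85 in the controls. It was higher than control with shRNA 159 (0.93 ± 0.08) and lower with shRNA 162 (-0.59 ± 0.08). NOL10, a nucleolar protein, had 10.46 and 10.35 in the shRNA 159 clones, 10.13 and 10.01 in the shRNA 162 clones and 9.70 and 9.53 in the controls. The cilium protein WDR35 had 9.04 and 8.95 in the shRNA 159 clones, 8.91 and 8.87 in the shRNA 162 clones and 8.26 and 8.35 in the controls. WDR35 and NOL10 were called higher with both hairpins. SDC1, the heparan sulphate proteoglycan syndecan-1, had 9.38 and 9.44 in the shRNA 159 clones, 8.81 and 8.77 in the shRNA 162 clones and 9.25 and 9.30 in the controls. YPEL5 had 9.64 and 9.74 in the shRNA 159 clones, 9.15 and 9.09 in the shRNA 162 clones and 9.53 and 9.51 in the controls. In these last 2 genes the shRNA 162 clones lay below all other clones and the shRNA 159 difference from control was not called (0.13 ± 0.07 for SDC1 and 0.17 ± 0.08 for YPEL5).

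The other genes of the interval that the naming rule picked were given by single differences. THADA (0.53 with shRNA 159, 0.43 with shRNA 162) and the ethanolamine phosphotransferase SELENOI (0.62, 0.42) were above control with both. The lipid droplet hydrolase LDAH (0.71, 0.20) was called with shRNA 159. Galactose mutarotase, GALM (0.61, -0.22), the nuclear receptor coactivator NCOA1 (0.52, -0.22) and PLEKHH2 (0.47, -0.22) had values of opposite sign. None of these was called with shRNA 162. With shRNA 159, GALM and NCOA1 were called and PLEKHH2 was not. The potassium channel subunit KCNS3 (-0.16, 0.44) and the 7SL pseudogene RN7SL832P (0.05, 0.39) were higher with shRNA 162 than with shRNA 159. RN7SL832P belongs to a family of near-identical copies whose signals may mix.

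**Figure D4:**
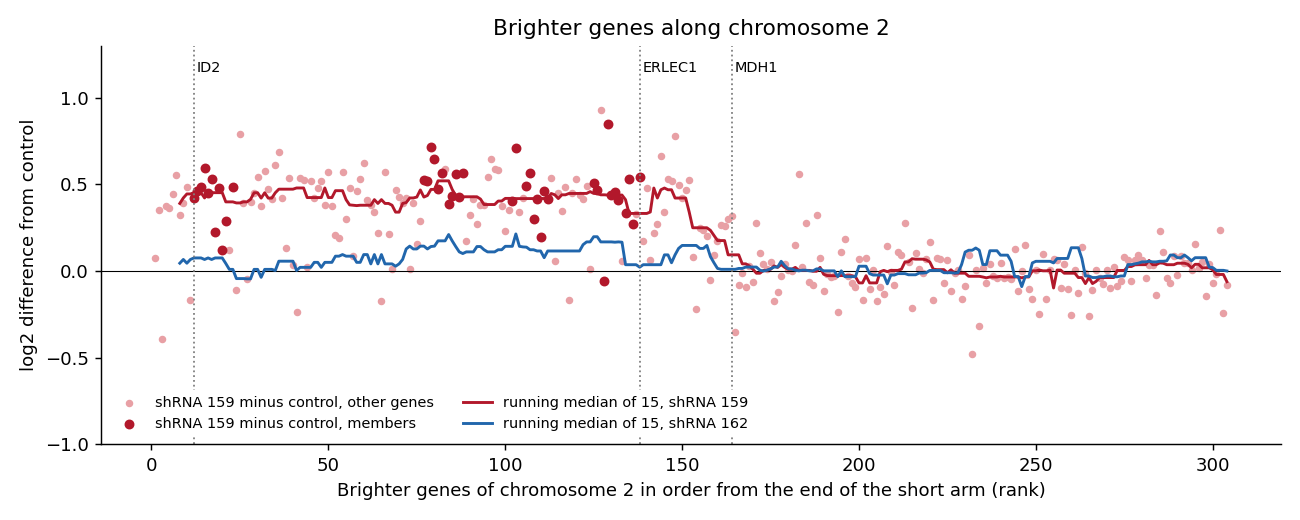
Log2 difference from control (vertical axis) of the first brighter genes of chromosome 2 in order from the end of the short arm (horizontal axis, rank), with dark points for the listed genes, pale points for other genes (both shRNA 159) and lines for running medians of 15 genes (shRNA 159 red, shRNA 162 blue). The shRNA 159 line lies above the shRNA 162 line from before ID2 to MDH1, is lower between ERLEC1 and MDH1 (median of those genes 0.27) and comes down toward 0 near MDH1.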

How the data were processed

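Log2 signals per probe set were deposited by the authors, who processed the 6 arrays with the Affymetrix Exon Array Computational Tool, per the series' design text. The settings of that tool were not given in the sources used here. Values ran from 2.29 to 14.65, from which base 2 was inferred. Of 33297 rows, 19460 carried 1 gene symbol in the platform's probe table, 1754 several and 12083 none. The 21214 rows with a symbol were fitted without further scaling as 3 groups in limma 3.58.1 (R 4.3.3; lmFit and eBayes, 3 residual and 5.31 prior degrees of freedom), two-sided, with Benjamini-Hochberg adjustment over all of them and a threshold of 0.05. The adjusted p values in the text are limma's. Arrays give no count depth, and their number limits the precision. Nothing in the labels says how separately the clones were handled after cloning, so errors measure the spread between these clones.

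Where a gene had several rows, the brightest by mean was used. The members and gene lists were chosen with earlier results of these data known. The naming rule took, in each of 4 stretches, the 5 genes with the largest absolute difference from control with either hairpin, plus the first and the last, and among other genes of the interval the 4 largest called each way per contrast. Positions, gene order and promoter sequences came from RefSeq, GRCh38.p14. Python 3.11.15 with matplotlib 3.10.9 drew the figures. On simulated data for shRNA 159 minus control (21214 rows, 50 per size), the fit called 8% of planted log2 changes of 0.25, 84% of 0.5 and 100% of 0.75. Alternatives were quantile normalization, brighter rows only (at or above the lower quartile of row means), all rows, a variance trend, a replicate block, only the 4 arrays compared, the dimmer row of a gene with several, and leaving out each array.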

Additional observations from a re-analysis of the deposited data

Results flagged for a closer look

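The results below are those in which the 2 hairpins' differences from control were themselves called different, by limma's contrast of shRNA 159 minus shRNA 162 at an adjusted p under 0.05. The contrast took part in the choice of the listed genes, so the values are a description, and no explanation was tested. All 22 listed genes with that call are given, each by its brightest row. EPCAM had the largest log2 difference of shRNA 159 minus shRNA 162, 0.79, and 1.09 in its other row. MCFD2 followed at 0.78, its difference from control being 0.46 with shRNA 159 and -0.32 with shRNA 162. The difference between hairpins was 0.57 for PRKD3, 0.56 for CRIPT, 0.54 for ERLEC1, 0.50 for STRN, 0.49 for ADAM17, 0.49 for SUPT7L, 0.48 for KIDINS220 and 0.47 for SLC4A1AP. PPP1CB and MRPL33 both had 0.43, HNRNPLL 0.42, MORN2 0.41, IAH1 0.38 and RRM2 0.37. TAF1B and FBXO11 both had 0.36, SRBD1 0.34, DHX57 0.33 and PPP1R21 0.30. RRM2 and PPP1R21 lay just inside the threshold (limma adjusted p = 0.0486 and 0.0498). The dimmer RHOQ row was also called, at 0.51. CYP1B1 ran the other way, at -0.58.

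Of the other genes of the interval, 49 were called so, and those that the naming rule picked are given. EPAS1 stood at 1.51, the difference from control being 0.93 with shRNA 159 and -0.59 with shRNA 162, and every clone of each hairpin lay on its own side of the controls. GALM had 0.83, NCOA1 0.74, PLEKHH2 0.69, SDC1 0.62, YPEL5 0.57 and LDAH 0.51. KCNS3 had -0.60 and RN7SL832P -0.34, the shRNA 162 clones being higher. The KCNS3 controls were far apart, at 6.81 and 7.29.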

How the results depend on the processing

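No called result changed direction under any alternative. Uncalled values near 0 did change sign, such as MORN2 and ERLEC1 with shRNA 162 (-0.05 and -0.06 after quantile normalization, against 0.01 and 0.00) and ODC1 between hairpins (-0.01 against 0.01), and so did medians over all rows (with shRNA 162, -0.01 against 0.02). Over the named genes and their contrasts, 1075 of 1323 alternative values kept their side of the threshold, 196 lost the call and 52 gained it. Leaving out each array in turn gave member calls of 5 to 30 with shRNA 159 (34 in full), 1 to 12 with shRNA 162 (9) and 5 to 21 between the hairpins (22); other genes of the interval 3 to 36 (49), 2 to 19 (16) and 11 to 33 (49); all rows 142 to 512 (537), 526 to 2416 (2019) and 597 to 1352 (1836). The member medians ran from 0.40 to 0.50 with shRNA 159, 0.14 to 0.16 with shRNA 162 and 0.23 to 0.34 between hairpins. Testing all rows, which adds 12083 without a symbol, left 2, 2 and 6 member calls with shRNA 159, with shRNA 162 and between hairpins, 2, 3 and 10 calls among the other genes and 111, 691 and 593 over all rows. A variance trend gave 18 member calls, 27 calls among the other genes and 3482 over all rows with shRNA 162, 1137 over all rows with shRNA 159 and 3022 between hairpins. Brighter rows only gave 14 member calls and a median of 0.17 with shRNA 162, and 821 calls over all rows with shRNA 159. Quantile normalization lowered the shRNA 162 member median to 0.12. Only the 4 arrays compared gave 22 member calls and 31 among the other genes with shRNA 159. TAX1BP3 between hairpins, 0.47, lost its call with all rows tested and, at 0.39, without shRNA 162 clone 1; leaving out each array gave 0.39 to 0.55. The sample titles do not say whether replicate numbers pair the samples, and the main fit took them as unpaired. Deviations of same-numbered clones from their group means correlated at 0.26 for shRNA 159 with control. The correlation was -0.05 for shRNA 162 with control and -0.03 between hairpins. With the replicate block, member calls were 36, 10 and 26 in the same order. The causes of these changes were not tested. Fitting other rows or arrays also changes the estimate of the spread that limma shares between rows.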

Other observations

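The difference with shRNA 159 did not stop at the first and last listed gene. Boundaries below were chosen after the values were seen, and the counts are of brighter genes, with a mean log2 signal at or above 7.88. Before ID2, 4 of 11 genes were called higher with shRNA 159, where 2.64% of all brighter rows were. Their median log2 difference from control was 0.37. After ERLEC1, up to MDH1 at positions 63588963 to 63607197 (malate dehydrogenase 1), 8 of 26 were called higher and the median was 0.27. Beyond MDH1, over the rest of chromosome 2, 3 of 450 were called higher and 8 lower, and the median was 0.01. Of all 10607 brighter rows, 105 were called lower with shRNA 159. The last 20 genes up to MDH1 had a median of 0.28 with 6 called higher, and the next 20 had 0.01 with 1 called higher. With shRNA 162 the medians were -0.02 before ID2, 0.07 from ERLEC1 to MDH1 and 0.03 beyond it.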
